A study of Mus musculus with 3 samples.

Results

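The DNA replication and repair genes of mouse liver were compared with the same genes in Universal Mouse Reference RNA (UMRR). The members were the probes whose single gene symbol began with a family prefix of replication or repair proteins (such as Mcm, Orc, Gins, Pola, Pold, Pole, Rfc, Rpa, Rad, Msh, Ercc, Xrcc, Fanc, Lig or Parp), together with Pcna, Tyms, Dut and Apex1, among others. The rule found 88 probes of 52 genes, among 12336 probes of 7984 genes with 1 symbol and 16273 probes in all. It used names only and no measured value. Genes for ribonucleotide reductase, topoisomerases, Brca and Mlh proteins, Fen1 and Tk1 were not analysed here. Each of 3 arrays of 2 colours carried purchased liver total RNA in the Cy5 channel against UMRR, bought as RNA pooled from lines of mouse cells, in the Cy3 channel, with no dye swap. The labels give 1 catalogue number for each RNA, so the arrays repeat 1 pair of RNAs and a p-value here reflects array-to-array spread, possibly technical. For the liver RNA the sources used here give no strain, sex, age or number of animals, and for UMRR no names of the lines.

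Before a cell divides, the origin recognition complex and MCM proteins license the origins, the MCM ring with GINS unwinds the DNA, and polymerases held by the Pcna clamp copy it. Repair pathways mend mismatched, damaged or broken DNA, and share several of these proteins. In adult liver most hepatocytes are out of the cell cycle and take it up again after injury or partial removal of the organ, while cell lines divide continually. In a bulk RNA, fewer cells that express a gene and less of its RNA per cell cannot be told apart.

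Every value below is a log2 ratio of liver over UMRR, so a negative value is a lower level in liver. Base 2 was read from the values, and natural logs would make every fold larger. An exact 0 was read as no ratio. The direction was set by 4 measured hepatocyte secretory genes (Apoc3, Ambp, Rbp4 and Vtn), whose means lay between 4.01 and 5.17. Because these genes set the direction, they are no check of the label of liver. In the same RNA 7 of 8 measured pancreatic acinar markers (median 4.09, exception Cel at 0.22) were also higher, beside 30.1% of all genes. So were 4 of 6 blood cell markers (median 2.37) and 3 of 5 markers of other liver cells (median 1.63, with 1 lower). The part of these cells in the members' ratios was not tested. Array 1 stood farther from the others: over all genes the SD of its difference from arrays 2 and 3 was 0.43 and 0.38, against 0.21 between arrays 2 and 3.

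Most measured replication and repair genes were lower in liver than in UMRR, while Mcm10, Rad51d, Parp14 and Pole4 were higher, Mcm10 by far the most. All 3 arrays gave a ratio for 51 of the 88 probes, which gave 35 of the 52 genes. The sources used here do not say whether dim spots were the ones left at 0, so the counts below describe those 35 genes and not all 52. In a limma fit over all 5520 genes with Benjamini-Hochberg adjustment, 23 of the 35 (65.7%) were lower in liver at an adjusted p of 0.05, beside 33.9% of all genes. Another 4 (11.4%) were higher, beside 30.1% of all genes, and 8 did not pass. Calls in either direction made up 64% of all genes. With exact zeros kept as ratios of 1, 18 of 52 members were lower and 3 higher, beside 15.4% and 14.6% of all genes. The median over the 35 genes was -0.66, and over all genes tested it was -0.028. Without any test, 8 of the 35 were at least 2-fold lower on every array (9.53% of all genes were), and Mcm10 was the member at least 2-fold higher on every array (9.46% of all genes were). By sign, 26 members were below 0 on each array (41.6% of all genes were) and 5 above 0 on each array (37.9%).

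By branch, with 33.9% of all genes lower and 30.1% higher as before, the counts were as follows. Of 21 measured replication genes (origin licensing, polymerases, clamp and its loader, nucleotide supply), 16 were lower, 2 were higher and 3 did not pass, and their means ran from -1.72 to 2.00 around a median of -1.04. Of 10 measured repair genes, 6 were lower, 1 was higher and 3 did not pass, and their means ran from -1.86 to 0.48 around a median of -0.61. With Mcm8 and Mcm9 counted as repair genes, a grouping added after seeing the data, 14 of 19 replication genes and 8 of 12 repair genes were lower. The replication and repair medians were not tested against each other. On single probes, 33 of 51 member probes (64.7%) were lower past the test and 6 were higher, beside 33.5% and 31.4% of all 9910 probes.

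**Figure D1:**
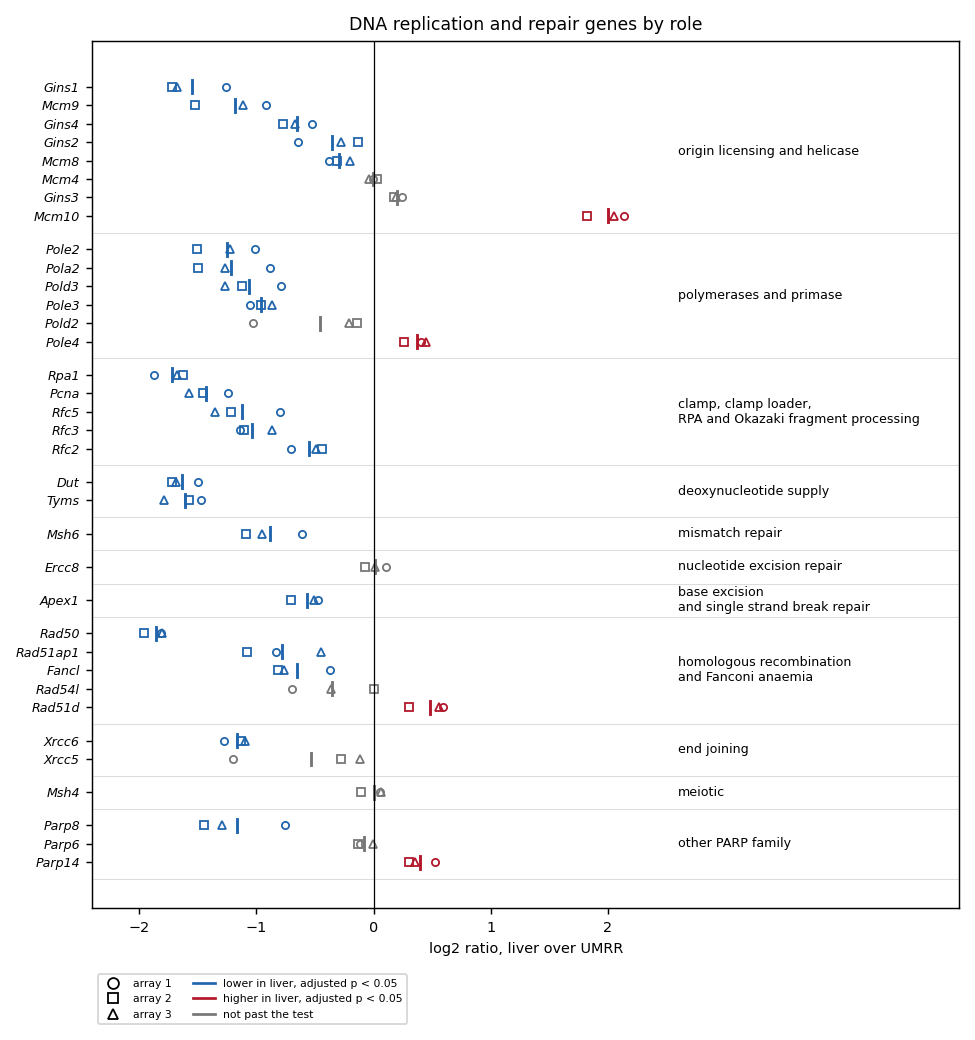
Each row is a member gene with a ratio on 3 arrays, grouped by role; open symbols are the arrays, the bar is their mean and the x axis is the log2 ratio of liver over UMRR. Most rows lie left of 0, from Rad50 at -1.86 upwards, while Mcm10 stands alone at 2.00.

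**Figure D2:**
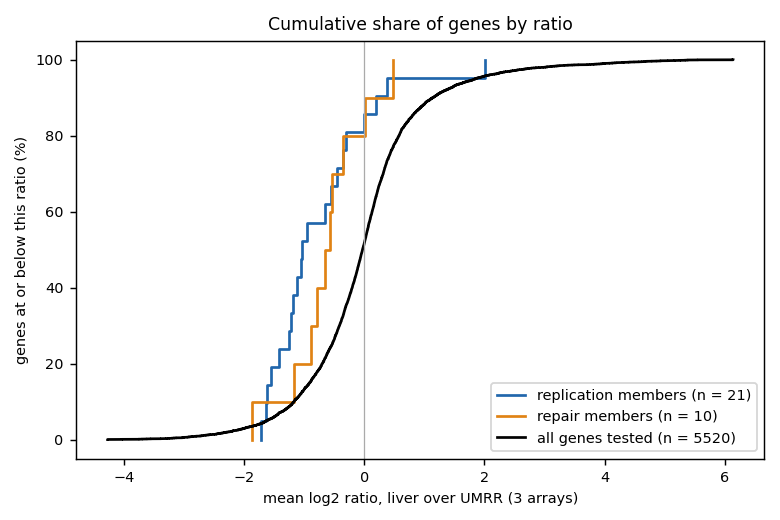
The curves give the percent of genes (y axis) at or below a mean log2 ratio of liver over UMRR (x axis) for 21 replication members, 10 repair members and all 5520 genes tested. Around their medians of -1.04 and -0.61 the member curves lie left of that of all genes, whose median was -0.028.

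Promoters of members whose ratios lay far apart are shown to let the sequence be read beside the ratio. They are RefSeq windows of build GRCm38.p6, from 250 bases before to 50 bases after an annotated start, written 5′ to 3′ on the gene's own strand. Capitals mark matches to 3 motifs searched on both strands: an E2F word (TTTCCCGC, TTTCGCGC, TTTGCCGC or TTTGGCGC), the CCAAT box (CCAAT) and the GC box (GGGCGG). The first set holds the 4 replication genes with the lowest ratios that have a window (Gins1 is named only), and the E2F word is in none of them. Rpa1 lies at chr11:75348334-75348633 on the minus strand, Dut at chr2:125247265-125247564 on the plus strand, Tyms at chr5:30073576-30073875 on the minus strand and Pcna at chr2:132253131-132253430 on the minus strand.
Rpa1: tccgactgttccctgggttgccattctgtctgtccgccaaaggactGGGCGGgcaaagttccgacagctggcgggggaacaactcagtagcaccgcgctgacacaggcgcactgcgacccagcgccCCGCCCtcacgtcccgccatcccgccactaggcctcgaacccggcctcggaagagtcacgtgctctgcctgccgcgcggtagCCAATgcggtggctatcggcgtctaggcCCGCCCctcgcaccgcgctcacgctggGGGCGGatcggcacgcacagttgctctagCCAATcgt
Dut: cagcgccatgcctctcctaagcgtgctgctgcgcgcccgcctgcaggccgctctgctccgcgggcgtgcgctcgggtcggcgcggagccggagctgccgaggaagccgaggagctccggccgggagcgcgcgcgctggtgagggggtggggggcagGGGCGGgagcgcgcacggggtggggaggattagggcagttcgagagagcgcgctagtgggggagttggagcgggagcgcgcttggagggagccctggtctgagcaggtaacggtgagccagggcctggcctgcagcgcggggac
Tyms: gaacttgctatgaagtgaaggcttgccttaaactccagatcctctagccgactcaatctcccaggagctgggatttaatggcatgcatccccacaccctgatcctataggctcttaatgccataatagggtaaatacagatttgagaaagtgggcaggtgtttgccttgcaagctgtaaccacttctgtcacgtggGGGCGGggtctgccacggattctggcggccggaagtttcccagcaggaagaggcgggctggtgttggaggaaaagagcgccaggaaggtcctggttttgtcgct
Pcna: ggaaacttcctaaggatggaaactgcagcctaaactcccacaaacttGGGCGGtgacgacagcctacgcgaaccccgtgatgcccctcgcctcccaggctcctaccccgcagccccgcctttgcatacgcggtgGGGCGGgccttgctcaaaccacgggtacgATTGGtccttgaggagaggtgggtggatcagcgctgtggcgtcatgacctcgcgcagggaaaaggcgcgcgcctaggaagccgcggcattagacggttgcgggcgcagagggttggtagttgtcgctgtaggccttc

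The second set was chosen after the values and matches were seen. Mcm10, the member far above 0, lies at chr2:5012742-5013041 on the minus strand and holds 3 CCAAT boxes and no whole E2F word. Its last letters, tttggcg, begin the E2F word TTTGGCGC, and the next base lies outside the window. A word that crosses the edge would not be counted. Rfc3 (-1.04), at chr5:151651159-151651458 on the minus strand, is the measured member with 2 E2F words in 1 window, at -10 and 1 from the start. Pole2 (-1.25), at chr12:69228141-69228440, and Pole4 (0.37), at chr6:82652816-82653115, both on the minus strand, are subunits of 1 polymerase with ratios on opposite sides of 0, and each window holds an E2F word.
Mcm10: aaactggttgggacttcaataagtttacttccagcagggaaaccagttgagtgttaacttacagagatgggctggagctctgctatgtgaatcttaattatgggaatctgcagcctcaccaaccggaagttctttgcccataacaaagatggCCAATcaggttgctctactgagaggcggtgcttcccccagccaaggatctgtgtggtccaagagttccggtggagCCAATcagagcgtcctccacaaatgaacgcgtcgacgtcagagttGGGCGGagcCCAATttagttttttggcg
Rfc3: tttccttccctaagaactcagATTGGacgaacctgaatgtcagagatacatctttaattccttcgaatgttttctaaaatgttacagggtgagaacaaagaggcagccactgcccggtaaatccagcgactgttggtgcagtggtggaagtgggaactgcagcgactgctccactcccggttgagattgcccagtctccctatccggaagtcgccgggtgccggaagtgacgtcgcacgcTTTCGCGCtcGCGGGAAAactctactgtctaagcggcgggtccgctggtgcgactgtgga
Pole2: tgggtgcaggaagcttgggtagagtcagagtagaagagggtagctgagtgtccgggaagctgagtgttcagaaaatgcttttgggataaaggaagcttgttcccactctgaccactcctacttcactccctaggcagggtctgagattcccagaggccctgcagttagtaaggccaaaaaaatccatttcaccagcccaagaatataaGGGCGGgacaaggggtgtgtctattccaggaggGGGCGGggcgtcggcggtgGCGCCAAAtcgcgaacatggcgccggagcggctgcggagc
Pole4: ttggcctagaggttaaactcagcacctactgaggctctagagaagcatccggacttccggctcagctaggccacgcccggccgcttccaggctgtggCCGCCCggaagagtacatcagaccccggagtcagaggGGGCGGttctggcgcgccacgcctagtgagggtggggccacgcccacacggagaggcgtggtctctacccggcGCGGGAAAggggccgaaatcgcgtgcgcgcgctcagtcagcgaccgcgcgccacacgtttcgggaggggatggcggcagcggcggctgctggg

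Windows were found for 40 of the 52 genes, 49 windows in all. An E2F word was in 13 of these windows (26.5%), beside 2.26% of all 32851 windows in the table. The CCAAT box was in 55.1% (37.4% of all windows) and the GC box in 71.4% (35.7% of all windows). The cell cycle homology words TTTGAA and TTCGAA were in 12.2% of the members' windows and in 19.2% of all windows. The median G and C content was 61.3% in the members' windows and 52.7% in all windows, and its part in these shares was not tested. In the members' windows no E2F word overlapped a GC box, 1 overlapped a CCAAT box, and 1 GC box overlapped a CCAAT box. Among members lower past the test, 6 of 18 windows (33.3%) held an E2F word, and among the other measured members 3 of 12 (25.0%) did. Of those 3, 2 are overlapping Pole4 windows with the same match, so by gene it is 2 of 9, while each of the 18 lower windows is a gene of its own. The words were therefore found on both sides, in Pole2, Pold3, Rfc3, Msh6, Xrcc6 and Mcm8, which were lower, and in Gins3 and Pole4, which were not. A match is a description of these letters and says nothing of binding.

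**Figure D3:**
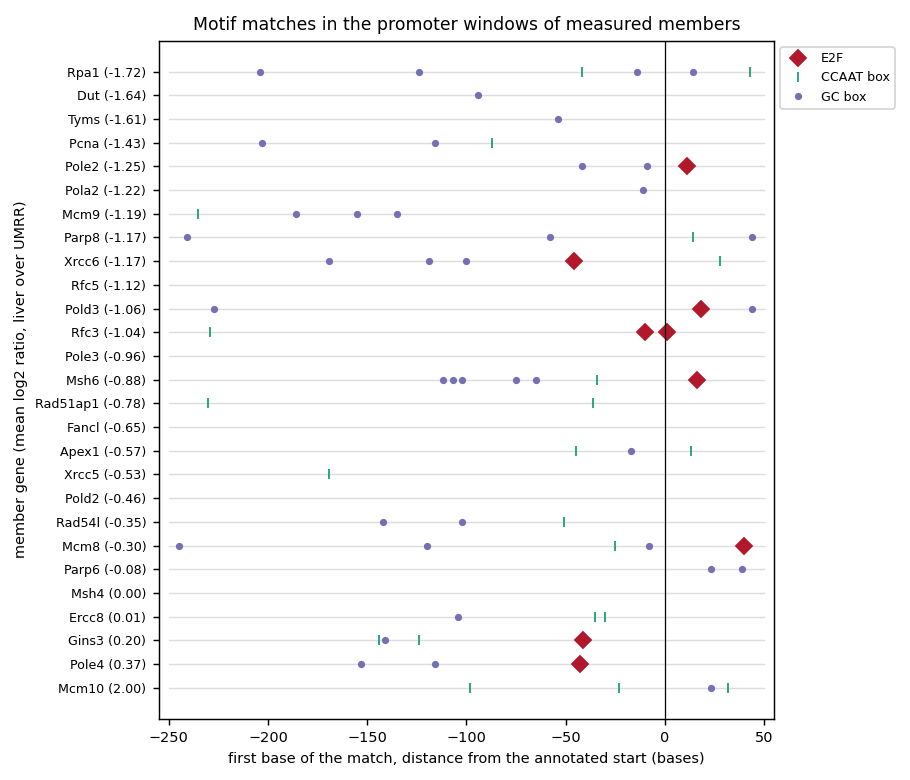
Rows are measured members with a promoter window (1 window a gene), ordered by their mean log2 ratio of liver over UMRR, and the x axis is the distance in bases of a match from the annotated start. E2F words (diamonds) occur near the start of members with low ratios such as Rfc3 (-1.04) and of Gins3 (0.20) and Pole4 (0.37).

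Origin licensing and the helicase spread the widest. Of 8 measured genes, 5 were lower, Mcm10 was higher, Mcm4 and Gins3 did not pass, and the median was -0.33. Without Mcm8 and Mcm9, which act in recombination, 3 of 6 were lower and the median was -0.18. Beside these counts, 33.9% of all genes were lower and 30.1% higher. No role was tested against those shares. Mcm10, which helps to start the replicative helicase, had ratios of 2.14, 1.83 and 2.05 on arrays 1, 2 and 3 (probe 8822), a mean of 2.00 ± 0.16 (SD, n = 3) or 4.01-fold higher in liver, with an adjusted p of 1.81e-05. All of its arrays were far above 0, and 95.7% of all genes tested had a lower mean. It rests on 1 probe, so no second probe checks it.

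The GINS complex, which travels with the MCM ring, was measured for each of its 4 subunits, and their ratios were unequal. Gins1 stood at -1.26, -1.72 and -1.68 on the 3 arrays, with a mean of -1.55 ± 0.25 (SD, n = 3), 2.93-fold lower in liver (adjusted p = 9.06e-05). Every array was below -1. Gins4 had a mean of -0.66 ± 0.13 (adjusted p = 0.00150), and its 2 probes stood 0.17 apart. Gins2 had ratios of -0.64, -0.14 and -0.28, with a mean of -0.35 ± 0.26 and an adjusted p of 0.0467, and lost its call without array 1 (-0.21, adjusted p = 0.0590) or array 3 (-0.39, adjusted p = 0.126), and with exact zeros kept (adjusted p = 0.199). Gins3 was slightly above 0 on each array (0.25, 0.17 and 0.19), with a mean of 0.20 ± 0.040, and did not pass (adjusted p = 0.0945). It passed as higher with exact zeros kept (adjusted p = 0.0253), with block medians subtracted (0.29, adjusted p = 0.0287) and without moderation of the variance (adjusted p = 0.0397).

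Set against each other on the same arrays, the ratio of Gins3 exceeded that of Gins1 by 1.51, 1.89 and 1.87, a mean difference of 1.75 ± 0.21 (SD, n = 3), or 3.37 times. Gins3 also exceeded Gins4 on every array, by 0.86 ± 0.087. Gins2 and Gins4 had no fixed order, since their difference was -0.12 on array 1 and 0.64 and 0.39 on arrays 2 and 3. These are differences of liver to UMRR ratios, and they do not compare the amounts of the subunits.

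Among the MCM genes, Mcm9, a helicase that works with Mcm8 in recombination, stood at -0.92, -1.52 and -1.11 with a mean of -1.19 ± 0.31 (SD, n = 3; adjusted p = 0.000443). Mcm8 was nearer to 0, at -0.38, -0.31 and -0.20 with a mean of -0.30 ± 0.094 (adjusted p = 0.0318). A further probe (15922), with no ratio on array 3, gave -1.56 and -1.34, well below the other probes. Mcm8 did not pass without array 2 (-0.29, adjusted p = 0.152) or without array 3 (-0.35, adjusted p = 0.129), though its mean changed little. It also did not pass with exact zeros kept (-0.52, adjusted p = 0.162). The ratio of Mcm8 exceeded that of Mcm9 on every array, by 0.89 ± 0.34.

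Mcm4, a subunit of the replicative MCM ring, had a mean of -0.0046 ± 0.036 (SD, n = 3; adjusted p = 0.968), which hid a disagreement of its probes. On array 1 probe 8932 gave 0.55 and probe 9538 gave -0.56, while on arrays 2 and 3 both lay between -0.15 and 0.15. Of its 5 probes, 4 shared an annotated source sequence with at least 1 other probe. Mcm7, of the same ring, had a ratio on array 2 alone (-0.16).

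Orc4 and Orc6, subunits of the origin recognition complex, had no probe with a ratio on all 3 arrays. Probe 2511 of Orc4 gave -1.78 and -2.08 on arrays 2 and 3, while its other probes gave -0.50 on array 2 and -0.20 on array 1. Orc6 gave -1.96 on array 2 alone. These ratios all lay below 0.

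The DNA polymerases were lower for 4 of 6 measured subunits, with 1 higher, 1 not past the test and a median of -1.01. Among all genes 33.9% were lower and 30.1% higher. Pole2, an accessory subunit of polymerase epsilon on the leading strand, stood at -1.01, -1.51 and -1.22, with a mean of -1.25 ± 0.25 (SD, n = 3) or 2.38-fold lower (adjusted p = 0.000221). A further probe of Pole2 (5819) with no ratio on array 2 stood closer to 0, at -0.28 and -0.33. Pola2, a subunit of the polymerase that works with primase, had ratios of -0.89, -1.50 and -1.27, with a mean of -1.22 ± 0.31 (adjusted p = 0.000400). Both genes were below 0 on each array.

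Within polymerase epsilon the subunits parted. Pole3, which pairs with Pole4 through histone folds, was lower at -0.96 ± 0.093 (SD, n = 3; adjusted p = 0.000235). Pole4 was higher at 0.40, 0.26 and 0.45, with a mean of 0.37 ± 0.098 or 1.29-fold (adjusted p = 0.0144), and its 2 other probes gave 0.54 and 0.14 on array 2. The groups of ratios did not overlap: Pole4 exceeded Pole3 by 1.46, 1.22 and 1.31, a mean of 1.33 ± 0.12, and Pole2 by 1.62 ± 0.18. Leaving out array 3 ended the call of Pole4 (adjusted p = 0.148), as did keeping exact zeros (0.20, adjusted p = 0.103), while the sign stayed positive.

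Polymerase delta, of the lagging strand, was measured for 2 accessory subunits. Pold3 was lower at -0.79, -1.12 and -1.27, with a mean of -1.06 ± 0.25 (SD, n = 3; adjusted p = 0.000445), and lost its call with exact zeros kept (-0.71, adjusted p = 0.103). Pold2 had -1.03 on array 1 and -0.14 and -0.21 on arrays 2 and 3, so its mean of -0.46 ± 0.49 rested on array 1 and did not pass (adjusted p = 0.0710). Without array 1 its mean was -0.18, and without array 2 it passed at -0.62 (adjusted p = 0.0381). Of the primase genes, Prim1 gave -2.69 on array 3 alone, and Prim2 had no ratio.

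The clamp, its loader and the single strand binding protein were lower for all 5 measured genes (33.9% of all genes were), with a median of -1.12. Rpa1, the large subunit that coats single-stranded DNA, stood at -1.87, -1.63 and -1.67, with a mean of -1.72 ± 0.13 (SD, n = 3) or 3.30-fold lower (adjusted p = 2.58e-05). Its 2 probes agreed to 0.091. Rpa2, its partner, gave -1.74 on array 3 alone.

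Pcna, the sliding clamp that holds polymerases on DNA, stood at -1.24, -1.46 and -1.58, with a mean of -1.43 ± 0.17 (SD, n = 3) or 2.69-fold lower (adjusted p = 7.12e-05). Its probes differed more than its arrays. Probes 4420 and 5935 had means of -1.86 and -1.88, while probe 12040 had a mean of -0.54, with -0.26, -0.35 and -1.01 on the 3 arrays, and probe 8985 gave -0.74 and -0.95 on arrays 1 and 2. Every recorded Pcna ratio was below 0.

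The clamp loader subunits Rfc5, Rfc3 and Rfc2 had means of -1.12 ± 0.29, -1.04 ± 0.15 and -0.55 ± 0.14 (SD, n = 3), with adjusted p-values of 0.000475, 0.000227 and 0.00372. The probes of Rfc5 stood 1.06 apart: probe 2690 gave -1.12, -1.89 and -1.96, and probe 2790 gave -0.48, -0.55 and -0.75. Rfc2 was nearer to 0 than Rfc3 on each array, by 0.49 ± 0.15. Lig1, the ligase that joins lagging strand fragments, had no ratio on any array.

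Deoxynucleotide supply was represented by Dut and Tyms, which act in sequence, Dut turning dUTP into dUMP and Tyms making dTMP from it. Dut stood at -1.50, -1.72 and -1.69, with a mean of -1.64 ± 0.12 (SD, n = 3) or 3.11-fold lower (adjusted p = 3.04e-05). Tyms stood at -1.47, -1.58 and -1.79, with a mean of -1.61 ± 0.16 or 3.06-fold lower (adjusted p = 4.02e-05). Both enzymes were more than 2-fold lower on each array, and the probes of Dut had means of -1.85 and -1.42.

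Among repair genes, those of homologous recombination and the Fanconi anaemia pathway included both directions, with 3 of 5 lower, 1 higher and a median of -0.65. Among all genes 33.9% were lower and 30.1% higher. Rad50, which bridges broken ends with Mre11 and Nbn, had the lowest mean of the 35 members, at -1.81, -1.96 and -1.81, a mean of -1.86 ± 0.088 (SD, n = 3) or 3.63-fold lower (adjusted p = 1.63e-05). Its 3 arrays lay close together, on 1 probe (5104). In the ranking of all 5520 genes it was the 194th from the lowest.

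Rad51ap1, which acts in strand exchange, depended on the probe. Probe 14612 entered the fit with -0.83, -1.08 and -0.45, a mean of -0.78 ± 0.32 (SD, n = 3; adjusted p = 0.00302). Probe 13638 had no ratio on array 1 and gave -3.20 and -3.50 on arrays 2 and 3, the lowest ratios of any member probe, and its other probe had no ratio. With probes on 2 arrays let in, the gene's mean was -1.65 (adjusted p = 0.00306), and with exact zeros kept it was -1.01 and the call was lost (adjusted p = 0.151).

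Fancl, the ubiquitin ligase of the Fanconi pathway, was lower at -0.65 ± 0.24 (SD, n = 3; adjusted p = 0.00367), with -0.37, -0.81 and -0.76 on the arrays. Its 3 probes on all arrays ranged from -0.92 to -0.41, and with exact zeros kept the mean was -0.42 and the call was lost (adjusted p = 0.0973). Rad54l, a DNA translocase of recombination, had -0.70, 0.00098 and -0.36, with a mean of -0.35 ± 0.35, and did not pass (adjusted p = 0.0757), though it did without array 2 (-0.53, adjusted p = 0.0268). Fancd2, the substrate of Fancl, gave -0.24 on array 2 alone, and Fanca had no ratio.

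Rad51d, of homologous recombination, went the other way, with 0.59, 0.30 and 0.56, a mean of 0.48 ± 0.16 (SD, n = 3) or 1.40-fold higher in liver (adjusted p = 0.00692). Probe 18008 gave 1.12, 0.56 and 1.23 and probe 11173 gave 0.16, 0.031 and 0.17, although both were annotated to 1 source sequence. Probe 17549 lay between them at a mean of 0.36. Every ratio was above 0, but leaving out array 3 ended the call (adjusted p = 0.0680), as did keeping exact zeros (adjusted p = 0.0509).

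The Ku heterodimer, which binds broken ends for end joining, was measured for both subunits. Xrcc6 stood at -1.27, -1.13 and -1.10, with a mean of -1.17 ± 0.094 (SD, n = 3) or 2.24-fold lower (adjusted p = 0.000102). Xrcc5 had -1.20 on array 1 and -0.28 and -0.12 on arrays 2 and 3, with a mean of -0.53 ± 0.58, and did not pass (adjusted p = 0.0677). The subunits were alike on array 1, where they differed by 0.076, and apart on arrays 2 and 3, where Xrcc5 exceeded Xrcc6 by 0.85 and 0.98. Without array 1 the mean of Xrcc5 was -0.20, and without array 3 it passed at -0.74 (adjusted p = 0.0247).

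Mismatch, base excision and nucleotide excision repair were thinly covered. Msh6, which recognises mismatches, was lower at -0.61, -1.09 and -0.95, with a mean of -0.88 ± 0.25 (SD, n = 3; adjusted p = 0.00101). Msh3, also of mismatch recognition, gave -0.013 and -0.73 on arrays 2 and 3. Apex1, the endonuclease that cuts at abasic sites, was lower at -0.48, -0.71 and -0.51, with a mean of -0.57 ± 0.12 (adjusted p = 0.00288). Ercc8, of transcription-coupled repair, was near 0 on all arrays (0.11, -0.077 and 0.0092) and did not pass (adjusted p = 0.913). Ercc2, Ercc3, Ercc4 and Lig3 had no ratio on any array.

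The remaining members sit apart from the core pathways. Msh4, of meiotic crossing over, was near 0 at 0.0037 ± 0.094 (SD, n = 3; adjusted p = 0.975), and Msh5, its partner, had no ratio. Rad18, a ubiquitin ligase of damage tolerance, and Rad21, a cohesin subunit, had a ratio on array 2 alone, at -0.050 and -0.027. Of the ADP-ribosyltransferases, Parp8 was lower at -0.76, -1.45 and -1.29, with a mean of -1.17 ± 0.36 (adjusted p = 0.000740). Parp14, known from interferon responses, was higher at 0.53, 0.30 and 0.36, with a mean of 0.40 ± 0.12 or 1.32-fold (adjusted p = 0.0123), and lost its call without array 3 (adjusted p = 0.0822). Parp6 averaged -0.084 ± 0.071 (adjusted p = 0.458) over 4 probes whose means ran from -0.67 to 0.28, so the probes of this gene lay on both sides of 0.

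Of the 52 genes, 17 had no ratio on all 3 arrays: 2 reached 2 arrays at best (Orc4 and Msh3), 7 reached 1 array (Mcm7, Orc6, Prim1, Rpa2, Fancd2, Rad18 and Rad21) and 8 had none (Lig1, Lig3, Prim2, Ercc2, Ercc3, Ercc4, Fanca and Msh5). The recorded ratios of those 9 genes were all below 0, from -2.69 for Prim1 to -0.013 for Msh3. Among member probes, exact zeros made up 35.2% on array 1, 21.6% on array 2 and 31.8% on array 3, against 32.2%, 23.5% and 29.6% of all probes. All arrays gave a ratio for 58.0% of member probes and for 62.7% of all probes with 1 symbol.

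Of 11 members with over 1 probe on all arrays, the highest and lowest probe stood between 0.091 (Rpa1) and 1.34 (Pcna) apart. Pcna and Rfc5 passed 1 log2 unit. Some probes of Mcm4, Parp6, Rad51d and Rfc2 shared a source sequence in the annotation. Spread between arrays was close to that of all genes, with a median SD of 0.16 for members and 0.17 for all genes. Array 1 lay more than 0.5 from the mean of arrays 2 and 3 for 4 members, below it for Xrcc5, Pold2 and Rad54l and above it for Parp8.

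**Figure D4:**
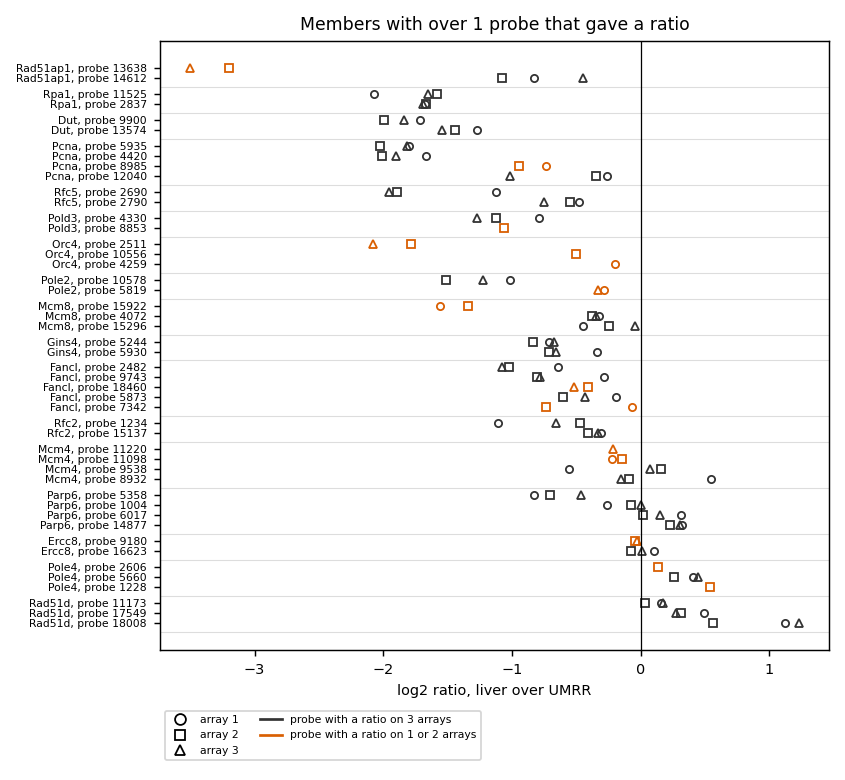
Rows are probes of members with over 1 probe that gave a ratio, symbols are the arrays and the x axis is the log2 ratio of liver over UMRR; orange marks probes with a ratio on 1 or 2 arrays. Probe 13638 of Rad51ap1 lies at -3.20 and -3.50, far from probe 14612 of that gene, and the 4 Pcna probes spread while all staying below 0.

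Other genes of the same pathways, from lists that the rule does not hold, were read from the same fit. Of 48 measured genes on the 7 lists, 27 (56.3%) were lower and 7 (14.6%) higher in liver, with a median of -0.39, beside 33.9% and 30.1% of all genes. S phase genes were lower for 4 of 9, with 0 higher and a median of -0.48. The 4 lay far below 0: Uhrf1, which recruits the maintenance methyltransferase, at -2.69 ± 0.32 (SD, n = 3), then Dbf4, Tipin and Dtl, the highest of the 4 at -2.08 ± 0.34. The other 5, among them Cdc7, the kinase that Dbf4 activates, did not pass. Cdc7 gave -0.21, -0.065 and 0.27 on the arrays.

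Genes of the E2F and Rb axis, which times the entry into S phase, had a median of -1.36. Of 10 measured, 7 were lower and 1 was higher, beside 33.9% and 30.1% of all genes. Ccna2, a cyclin of S phase and mitosis, was lowest at -2.93 ± 0.095 (SD, n = 3; adjusted p = 4.59e-06). E2f4, a repressor form of E2F found in resting cells, was higher at 0.59, 0.75 and 0.68, a mean of 0.67 ± 0.083 (adjusted p = 0.00107). E2f1, an activator form, stood at -0.41, 0.081 and -0.24 and did not pass (adjusted p = 0.214).

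DNA damage signalling was lower for 3 of 4 genes (median -1.05), with Mdm2, the ligase for p53, at -1.32 ± 0.19 and Atm, the kinase that senses breaks, at -0.95 ± 0.098 (SD, n = 3). Translesion polymerases and their partners were lower for 5 of 6 and higher for 1 (median -0.92). Polk, a bypass polymerase, stood at -1.38 ± 0.029, and Ube2b, which acts with Rad18, at 0.42 ± 0.26 (adjusted p = 0.0243). The call of Ube2b was lost without array 3 (adjusted p = 0.0917) and with exact zeros kept (adjusted p = 0.145). Other nucleotide excision genes were lower for 3 of 7 (42.9%) and higher for 1 (14.3%), beside 33.9% and 30.1% of all genes. Their median was -0.18, between Mnat1, of the kinase attached to TFIIH, at -1.43 ± 0.055 and Xpa, the damage verifier, at 0.63 ± 0.13. Of 2 other base excision genes, Neil1, a glycosylase, was lower at -0.32 ± 0.044 (adjusted p = 0.0205). Neil1 did not pass without array 2 (-0.34, adjusted p = 0.0949) or without array 3 (-0.33, adjusted p = 0.151), though its mean changed little.

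The other genes of nucleotide supply lay on both sides of 0: of 10 genes, 4 were lower and 4 higher (33.9% and 30.1% of all genes were), and the median was -0.27. The 4 lower ones, in the direction of Dut and Tyms, were Cad, Nme1, Atic and Paics. Cad, which starts pyrimidine synthesis, was lower at -0.77, -1.40 and -1.04, a mean of -1.07 ± 0.32 (SD, n = 3; adjusted p = 0.000759). Shmt1, which feeds folate to thymidylate synthesis and also handles serine and glycine, was higher at 2.31, 2.64 and 2.75, a mean of 2.57 ± 0.23 (adjusted p = 1.08e-05). The Cad and Shmt1 ratios lay on opposite sides of 0 on every array.

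**Figure D5:**
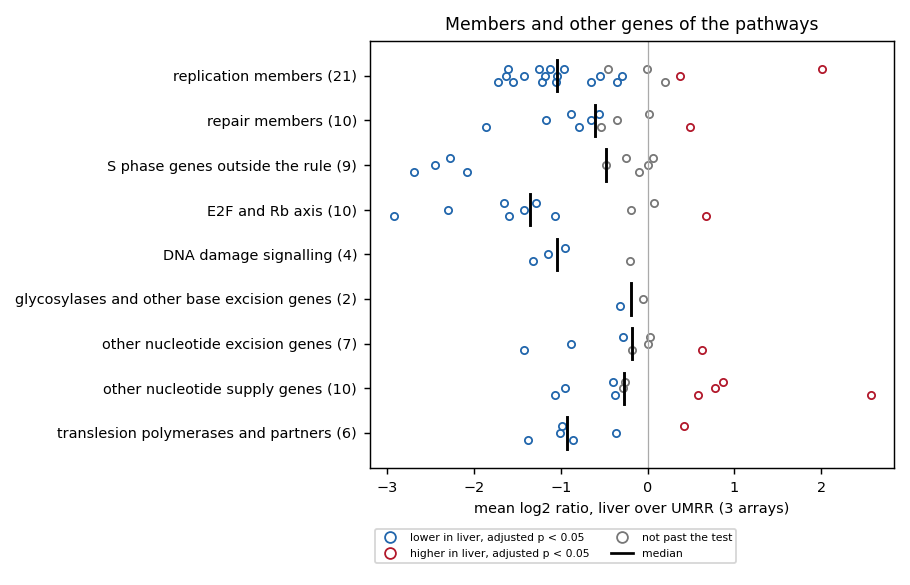
Each circle is the mean log2 ratio of liver over UMRR (x axis) of 1 gene, by list with the number of measured genes in brackets, coloured by the limma call, and black bars are medians. The replication members centre on -1.04 and the E2F and Rb axis on -1.36, while other nucleotide supply genes reach from -1.07 for Cad to 2.57 for Shmt1.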

How the data were processed

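The authors deposited signed values, 1 for each probe on each array, taken here for the log2 ratio of liver (Cy5) over UMRR (Cy3), per the labels, which name the dyes. The sources used here give no log base, direction, scanner, background correction, dye normalization or filter. Base 2 was taken from the width of the values, and the direction from hepatocyte genes. Exact zeros, 23.5% to 32.2% of an array, were read as no ratio.

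Probes were named from the platform annotation; all 88 member probes matched the reference gene table by gene identifier, and 0 symbols differed. A further probe with several symbols, 1 of which met the rule, was left out. Probes with a ratio on all 3 arrays were averaged per gene and array. An intercept was fitted over all genes by limma 3.58.1 (lmFit and eBayes, R 4.3.3), two-sided, adjusted by Benjamini-Hochberg and called under 0.05. Simulated data with independent noise and far fewer changed genes were also run through this fit, which does not check the calls made here. The number of arrays limits the precision. Role and pathway lists are described by counts and medians. Genes were named by a rule: measured members by role, pairs of subunits, members with probes at least 1 log2 unit apart, and the highest and lowest called gene of each pathway list. Genes outside it were chosen after their values were seen: E2f1, Cdc7, Dbf4, Tipin, Nme1, Atic and Paics, the marker Cel and the promoters of the second set. The members and lists were chosen with earlier results of these data known.

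The alternatives concerned exact zeros, probe summary, centring, scaling, blocks of 500 probe numbers, each array, variance, threshold, a 2-fold null and noisy probes.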

Additional observations from a re-analysis of the deposited data

How the results depend on the processing

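Each ratio already sets liver against UMRR on the same array, and no further pairing was possible because all arrays form 1 group. The count of 23 members lower in liver stayed between 18 and 25 except without moderation of the variance (13) and against a 2-fold difference (6); leaving out 1 array gave 22 to 24. The count of 4 higher was 2 without moderation (Mcm10 and Gins3, which gained its call there) and 2 at a threshold of 0.01. It was 1 against a 2-fold difference and 1 to 4 without 1 array, the 1 being without array 3. There the means of Rad51d, Parp14 and Pole4 were 0.45, 0.42 and 0.33, close to 0.48, 0.40 and 0.37 with all arrays, but did not pass. The median of -0.66 was -0.40 with exact zeros kept (52 genes in the fit), -0.74 with block medians subtracted, and -0.76 to -0.64 without 1 array. With zeros kept, 18 were lower and 3 higher, beside 15.4% and 14.6% of all genes. For the other alternatives the share of all genes called was not counted, so their counts have no such share beside them. The 8 members 2-fold lower on every array were 15 if the values are natural logs and 8 to 13 without 1 array, the 13 being without array 1. By role, the clamp median was -1.24 with block medians subtracted and -1.29 to -1.08 without 1 array, with 3 of 5 lower without moderation and 2 against 2-fold. Recombination had a median of -0.35 with zeros kept and 1 gene lower with zeros kept, without moderation and against 2-fold. Licensing had a median of -0.54 with probes on 2 arrays let in, and its 5 lower genes were 3 with zeros kept and at 0.01, 2 without moderation, 1 against 2-fold and 3 to 4 without 1 array; with Mcm8 and Mcm9 counted as repair, added after seeing the data, 3 were lower and the median was -0.18. The PARP median of -0.084 turned positive, to 0.024 with the median probe and to 0.0014 with block medians subtracted, and 0 PARP genes were lower without moderation or against 2-fold. The polymerase median was -0.72 with zeros kept, with 0 lower against 2-fold. No called member changed sign under these settings. Gins2 also lost its call after centring (adjusted p = 0.0522), and without moderation 13 members lost theirs, and with zeros kept 7 did. The cause of these changes was not tested. Dim probes could not be told from bright ones, since intensities were not used here.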
